A study of Mus musculus with 8 samples.

Results

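Mitochondrial transcripts and the pseudogenes that carry copies of them in the nuclear genome were compared between EMT6 tumours of mice given a granzyme B fusion protein and tumours of mice given IgG. They comprised 10 of the 26709 genes in the deposited table. Of these 10 genes, 8 lie on the mitochondrial genome: mt-Co1, mt-Co2, mt-Co3, mt-Atp6, mt-Cytb, mt-Nd1, mt-Nd2 and mt-Nd4. The other 2, Gm29216 and Gm10222, are annotated as unprocessed pseudogenes on chromosome 1 and were chosen for their opposite differences between the treatment groups. Because this contrast chose the genes, their levels and fold changes are given as a description and carry no test.

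EMT6 is a mouse mammary carcinoma line, here grown as mammary tumours in syngeneic Balb/c mice, with the genotype given as WT in both groups. The IgG group (n = 4) received the control, and the GrB group (n = 4), labelled Granzyme-B, received GrB-Fc-KS49. This human fusion protein brings granzyme B, a cytotoxic protease, to EMP2. Treatment was given 3 times over 10 days. Each title carries its own M number, but the labels do not say that it names an animal. Errors and p-values therefore describe the spread between these libraries. The titles of IgG 1 and GrB 3 end in U, which the labels do not explain. Libraries came from RNA enriched for mRNA and fragmented before random priming, and second-strand cDNA carried dUTP. Total estimated counts were 73984474 to 82624028 per library, and levels below are CPM, counts per 1000000 counts of a library, scaled by edgeR's trimmed mean of M values (TMM). Replicate numbers follow accession order and pair nothing across groups. Whole tumours were sequenced, so fewer cells of a type and less RNA per cell cannot be told apart. The labels name epithelial breast tumour cells: the summed level of 5 carcinoma markers (Epcam, Krt8, Krt18, Vim and Mki67) was 5466 to 5993 CPM in IgG and 5160 to 5924 CPM in GrB libraries. Epcam itself was low, at 3.19 to 4.46 CPM in IgG and 2.73 to 16.0 CPM in GrB libraries, while Vim, a mesenchymal filament protein, made up most of the sum.

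The mitochondrial genome is a small circular DNA that is transcribed from both strands into long precursors, which are cut at the tRNAs into shorter RNAs. Its protein genes encode core subunits of respiratory complexes I, III and IV and of the ATP synthase (complex V); all other subunits come from nuclear genes. Over evolution, stretches of mitochondrial DNA have been inserted into nuclear chromosomes. Such copies keep a sequence close to the original, so a short read can match both places, and counting then divides or assigns it by a rule of the software. The rule used here was not stated in the labels. Of the values, 45.7 to 47.3% per library were whole numbers, so fractions of reads had been assigned to genes.

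Both pseudogenes lay in 1 block of mitochondrial sequence on chromosome 1. In the table's build, GRCm39, 7 copies followed each other on the minus strand, from Gm28439 (starting at 24650616) to Gm29216 (ending at 24655278). They corresponded to mt-Nd4, mt-Nd4l, mt-Nd3, mt-Co3, mt-Atp6, mt-Co2 and mt-Co1. Matching of GENCODE M21 transcripts (GRCm38) found 5 of the 7 copies without a single difference from the mitochondrial gene over their length. Gm29216 (chr1:24654787-24655278, minus strand, 492 bases) corresponded to bases 1054 to 1545 of mt-Co1, the 3′ 31.8% of that gene, with 98.8% identity. All 6 of its differences fell within its first 13 bases: T1056A, C1057T, A1059G, A1060G, C1062A and A1066T, counted from 1 at the start of mt-Co1 with the mitochondrial base first. The first 120 bases of this match are shown because they hold every base that differs between the 2 genes within the match. The rest of mt-Co1 lies outside it. Capitals mark the differences.

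mt-Co1 bases 1054 to 1173: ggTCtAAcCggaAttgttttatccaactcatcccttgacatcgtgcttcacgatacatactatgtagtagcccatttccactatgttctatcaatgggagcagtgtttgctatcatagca
Gm29216 bases 1 to 120: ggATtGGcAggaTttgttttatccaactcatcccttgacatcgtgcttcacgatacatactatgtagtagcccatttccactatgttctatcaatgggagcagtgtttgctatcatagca

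Gm10222 (chr1:24651488-24651781, minus strand, 294 bases) was identical to bases 1 to 294 of mt-Nd4l, a complex I subunit gene of 297 bases, and ended only 3 bases before it. Those 3 bases, in capitals in the whole mt-Nd4l sequence, are the stop codon and the only letters that separate the 2 genes within their length.

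mt-Nd4l: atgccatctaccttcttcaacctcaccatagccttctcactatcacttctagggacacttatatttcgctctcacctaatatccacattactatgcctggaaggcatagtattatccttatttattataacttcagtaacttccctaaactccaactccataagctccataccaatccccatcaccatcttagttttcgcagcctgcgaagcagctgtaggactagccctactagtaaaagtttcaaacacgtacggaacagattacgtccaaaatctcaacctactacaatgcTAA

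Gm28438, the copy of mt-Nd3, differed from it at 1 base, T3C, counted from 1 at the start of mt-Nd3. The capital marks it in the first 60 bases of each.

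mt-Nd3: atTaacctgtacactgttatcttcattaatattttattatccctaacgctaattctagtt
Gm28438: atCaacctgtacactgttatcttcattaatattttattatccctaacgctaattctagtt

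Gm29216 showed the widest difference of the 10 genes. It was at 7.24, 5.63, 1.36 and 10.7 CPM in IgG 1 to 4 and at 1208, 444, 449 and 198.5 CPM in GrB 1 to 4. The lowest GrB library was thus far above the highest IgG library, and the GrB libraries themselves were widely spread. Behind these levels stood estimated counts of 98.7 to 864.5 in IgG and 15967.6 to 96511.7 in GrB libraries. Group means were 6.24 ± 3.88 CPM in IgG and 575 ± 438 CPM in GrB (SD, n = 4 each), a ratio of 92.2. The fitted log2 fold change was 6.52 (SE 0.82). GrB 1 set much of the mean: without it the GrB mean was 364 CPM and the ratio 58.3.

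Gm10222 went the other way and was far tighter. Its levels were 67.7, 73.6, 76.9 and 69.5 CPM in IgG 1 to 4 and 42.9, 49.1, 50.6 and 47.3 CPM in GrB 1 to 4. No GrB library reached the lowest IgG library. Means were 71.9 ± 4.17 and 47.5 ± 3.35 CPM (SD, n = 4 each), a ratio of 0.660 and a log2 fold change of -0.60 (SE 0.08).

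Among the 10 genes, these 2 were the ones whose groups did not overlap. Across all 19718 genes tested, 25.7% had groups that did not overlap, 10.3% higher and 15.3% lower in GrB; since the pair was chosen on this contrast, nothing is read from its count. By the edgeR quasi-likelihood test with Benjamini-Hochberg adjustment, 0% of all genes passed an adjusted p of 0.05 (smallest 0.0619), while 35.1% had an unadjusted p under 0.05. DESeq2 called 4708 genes and limma-voom 1, and edgeR called 1260 without GrB 1 and 3447 without GrB 4.

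**Figure D1:**
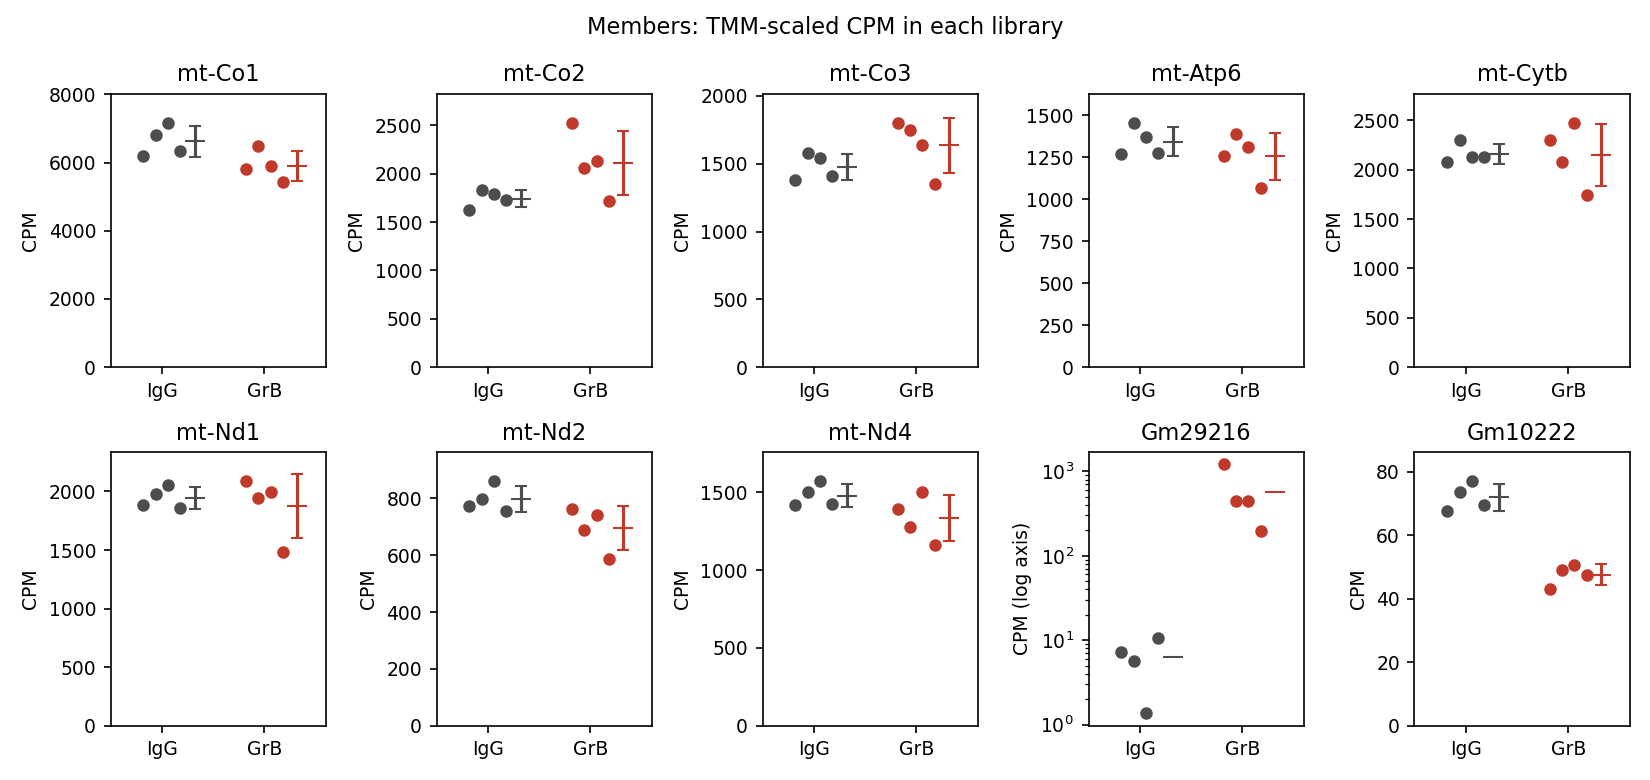
Level in CPM (vertical axis) of each of the 10 genes in the 4 IgG and 4 GrB libraries; each point is a library and lines give the group mean ± SD, except that Gm29216 has a log axis with the mean alone. Gm29216 runs from 1.36 to 10.7 CPM in IgG and from 198.5 to 1208 CPM in GrB, and the 8 mitochondrial genes overlap between groups.

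The 8 mitochondrial genes differed little between the groups. Their log2 fold changes ran from -0.20 (mt-Nd2) to 0.28 (mt-Co2), with a median of -0.07 beside a median of 0.03 over all genes tested; 2 were higher and 6 lower in GrB. In each of the 8 the ranges of the groups overlapped. The 8 genes made up 82.0 ± 1.51% of mitochondrial genome counts in IgG and 80.6 ± 1.76% in GrB libraries.

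The 3 mitochondrial subunits of cytochrome c oxidase (complex IV), which reduces oxygen, had differences of both signs. mt-Co1 (chrM:5328-6872, plus strand), the catalytic subunit, was the most abundant at 6189, 6820, 7164 and 6327 CPM in IgG and 5811, 6490, 5910 and 5427 CPM in GrB. Means were 6625 ± 450 and 5910 ± 440 CPM (log2 fold change -0.16, SE 0.08), with 3 of 4 GrB libraries below every IgG library. mt-Co2 (chrM:7013-7696), which receives electrons from cytochrome c, was at 1625, 1829, 1785 and 1729 CPM in IgG and 2525, 2061, 2129 and 1721 CPM in GrB. Here GrB 1 to 3 lay above every IgG library and GrB 4 among them; means were 1742 ± 88.2 and 2109 ± 330 CPM (0.28, SE 0.11). mt-Co3 (chrM:8607-9390), also a core subunit, was at 1477 ± 96.4 CPM in IgG and 1634 ± 203 CPM in GrB (0.15, SE 0.10). Its GrB libraries spanned 1349 to 1801 CPM and included the whole IgG range of 1378 to 1575 CPM.

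The 3 complex I genes had lower means in GrB, with overlapping groups. mt-Nd2 (chrM:3914-4951), a membrane-arm subunit, was at 773, 798.5, 860 and 755.2 CPM in IgG and 761.6, 688.9, 741.8 and 587.2 CPM in GrB. GrB 1 alone fell within the IgG range; means were 797 ± 45.8 and 695 ± 78.1 CPM (-0.20, SE 0.09). mt-Nd4 (chrM:10167-11544), also in the membrane arm, was at 1479 ± 71.2 and 1333 ± 147 CPM (-0.15, SE 0.09). mt-Nd1 (chrM:2751-3707), at the junction with the quinone site, was at 1944 ± 91.5 and 1877 ± 272 CPM (-0.05, SE 0.11).

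mt-Atp6 (chrM:7927-8607), part of the proton channel of ATP synthase, was at 1343 ± 88.4 CPM in IgG and 1256 ± 139 CPM in GrB (-0.10, SE 0.10). mt-Cytb (chrM:14145-15288), the mitochondrial subunit of complex III, was nearly level, at 2160 ± 98.6 and 2149 ± 314 CPM (-0.01, SE 0.11). For mt-Cytb and mt-Nd1 the sign of the difference changed under 7 and 3 of 21 alternative settings, respectively. GrB 4 was the lowest GrB library for all 8 genes, and without it mt-Nd1 had a log2 fold change of 0.05.

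The reads given to each copy and to its mitochondrial gene were then compared within each library. Of the copies of nearly full length, 3 took almost exactly 50% of the pair's counts. Gm28661 (mt-Co2), Gm28437 (mt-Co3) and Gm10925 (mt-Atp6) each stood within 0.1 points of 50% in all 8 libraries. Gm10222 took 47.0 to 53.7% of the counts it shared with mt-Nd4l. Gm28438, with its single different base, took 59.4 to 62.7% of the mt-Nd3 pair. Gm28439, identical to the first 876 of the 1378 bases of mt-Nd4, took at most 0.0071%. The deposited levels of mt-Co2, mt-Co3 and mt-Atp6 are therefore about 50% of the counts that matched either place.

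For Gm29216 the division differed between the groups. Its share of the counts of Gm29216 and the whole mt-Co1 gene together was 0.117, 0.0825, 0.0190 and 0.169% in IgG 1 to 4. In GrB 1 to 4 it was 17.2, 6.41, 7.06 and 3.53%. Every IgG library thus stood below every GrB library, and GrB 1 stood well above the other GrB libraries. Because Gm29216 matches only 31.8% of mt-Co1, these shares cannot be set beside those of the nearly full-length copies. By length, Gm29216 makes up 24.2% of the 2 genes together. When both were added, mt-Co1 with Gm29216 was at 6197, 6825, 7165 and 6338 CPM in IgG and 7020, 6935, 6359 and 5625 CPM in GrB. The sums overlapped, with means of 6631 ± 446 and 6485 ± 644 CPM and a log2 fold change of -0.03 (SE 0.09), against -0.16 for mt-Co1 alone. The counts that make Gm29216 92.2 times higher thus amounted to at most 17.2% of a sum that includes the whole mt-Co1 gene. That sum differed between the groups by less than its spread. However, the Gm29216 mean of 575 CPM in GrB was itself below the SD of 644 CPM of the GrB sums. The overlap of the sums therefore cannot show where the Gm29216 counts came from, and a move of reads between the 2 genes was not tested. Over the matched stretch of mt-Co1 alone, the share was not computed.

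**Figure D2:**
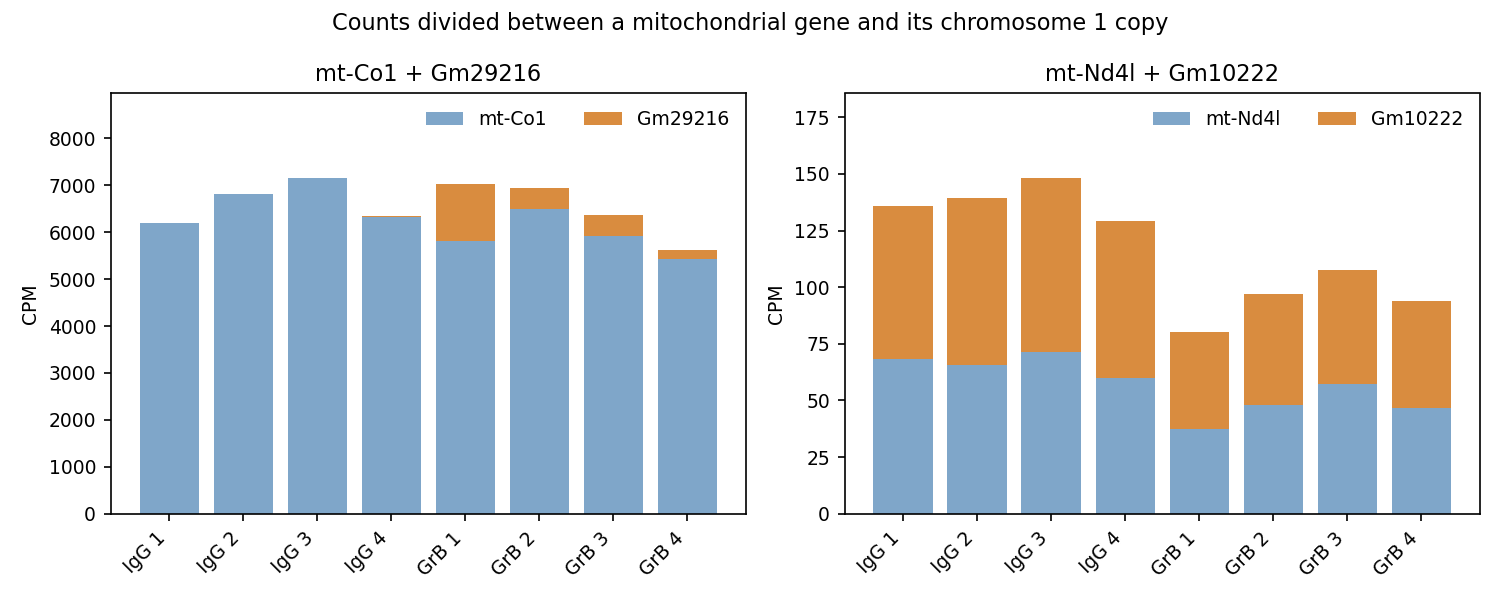
Stacked bars of CPM per library (vertical axis, from 0) for a mitochondrial gene and its chromosome 1 copy, in the 4 IgG and 4 GrB libraries. The mt-Co1 with Gm29216 bars reach 5625 to 7165 CPM in both groups, whereas the mt-Nd4l with Gm10222 bars reach 129 to 148 CPM in IgG and 80.2 to 107.8 CPM in GrB.

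The pair with Gm10222 gave the opposite outcome. mt-Nd4l on its own was at 68.4, 65.6, 71.5 and 59.9 CPM in IgG and 37.3, 47.8, 57.2 and 46.5 CPM in GrB, again without overlap. Summed with Gm10222 it was at 136, 139, 148 and 129 CPM in IgG and 80.2, 96.9, 107.8 and 93.8 CPM in GrB. Means were 138 ± 7.92 and 94.7 ± 11.4 CPM (-0.55, SE 0.10), so the sum was lower as well. Gm10222, chosen on this contrast, held 47.0 to 53.7% of the pair's counts, and its sequence is contained in mt-Nd4l. Neither mt-Nd4l nor the sum is therefore separate from that choice. Of the 7 pairs this was the 1 whose sums did not overlap between groups. Among all genes tested 25.7% did not overlap, and nothing is read from the count of pairs. The sum of mt-Co2 and Gm28661 was at 3481 ± 176 and 4214 ± 659 CPM (0.28, SE 0.11), and that of mt-Nd3 and Gm28438 at 183 ± 9.82 and 211 ± 30.8 CPM (0.21, SE 0.11).

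Pseudogene copies outside chromosome 1 were low in both groups. Gm13340, a 1545-base copy of mt-Co1 on chromosome 2, was at 0.808 ± 0.0488 CPM in IgG and 0.744 ± 0.163 CPM in GrB (log2 fold change -0.11, edgeR adjusted p = 0.724). Gm13341, a copy of mt-Co2 beside it, was at 1.67 ± 0.245 and 1.61 ± 0.192 CPM (-0.06, adjusted p = 0.838). The pseudogenes Gm4076, Gm13339, Gm11407, Gm11410 and Gm43743, the last sharing only 9 words of 31 bases with mt-Atp6, had at most 0.086 CPM in any library and were not tested. The protein-coding gene Cep295 shared 4 such words with the tRNA gene mt-Ty. Next to the chromosome 1 block, within 20 kb, the processed pseudogene Tubb4b-ps2 was at 0.561 ± 0.123 and 0.410 ± 0.0670 CPM (-0.44, adjusted p = 0.206).

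Of the other 14 mitochondrial genome genes in the table, 11 were tested, and 4 had an unadjusted p under 0.05 by edgeR, beside 35.1% of all genes; 0 passed after adjustment. Both higher calls, mt-Nd6 and mt-Ts1, were lost without IgG 2, IgG 3 or GrB 1. mt-Atp8, a short ATP synthase subunit whose reading frame overlaps that of mt-Atp6, was at 248, 266, 267 and 221 CPM in IgG and 126, 176, 167 and 159 CPM in GrB. The groups did not overlap, and the log2 fold change was -0.67 (SE 0.11, edgeR adjusted p = 0.0619). mt-Nd4l, which overlaps mt-Nd4 in the same way, had a log2 fold change of -0.49 (SE 0.12, edgeR adjusted p = 0.0619). It is among the 4, but its reads are divided with Gm10222, which was chosen on this contrast. Its p is therefore not separate from that choice. mt-Atp8 and mt-Nd4l are the 2 shortest protein genes of the mitochondrial genome, at 204 and 297 bases. The next, mt-Nd3 at 348 bases, was at 72.6 ± 4.24 and 81.6 ± 13.4 CPM (0.17, adjusted p = 0.341).

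mt-Nd6, the only protein gene on the other strand, was at 571, 600, 618 and 606 CPM in IgG and 911, 735, 844 and 567 CPM in GrB. GrB 1 to 3 lay above the IgG range and GrB 4 just below it (0.35, SE 0.14, adjusted p = 0.108). mt-Ts1, a tRNA, was near the floor at 1.35 ± 0.303 and 2.08 ± 0.578 CPM (0.62, SE 0.25, adjusted p = 0.117). The ribosomal RNAs mt-Rnr1 and mt-Rnr2 were at 317 ± 71.2 against 462 ± 206 CPM (0.54, adjusted p = 0.227) and 1377 ± 326 against 1511 ± 407 CPM (0.13, adjusted p = 0.690). mt-Nd5, another membrane-arm subunit of complex I, was at 1181 ± 102 and 1068 ± 81.9 CPM (-0.14, adjusted p = 0.266).

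**Figure D3:**
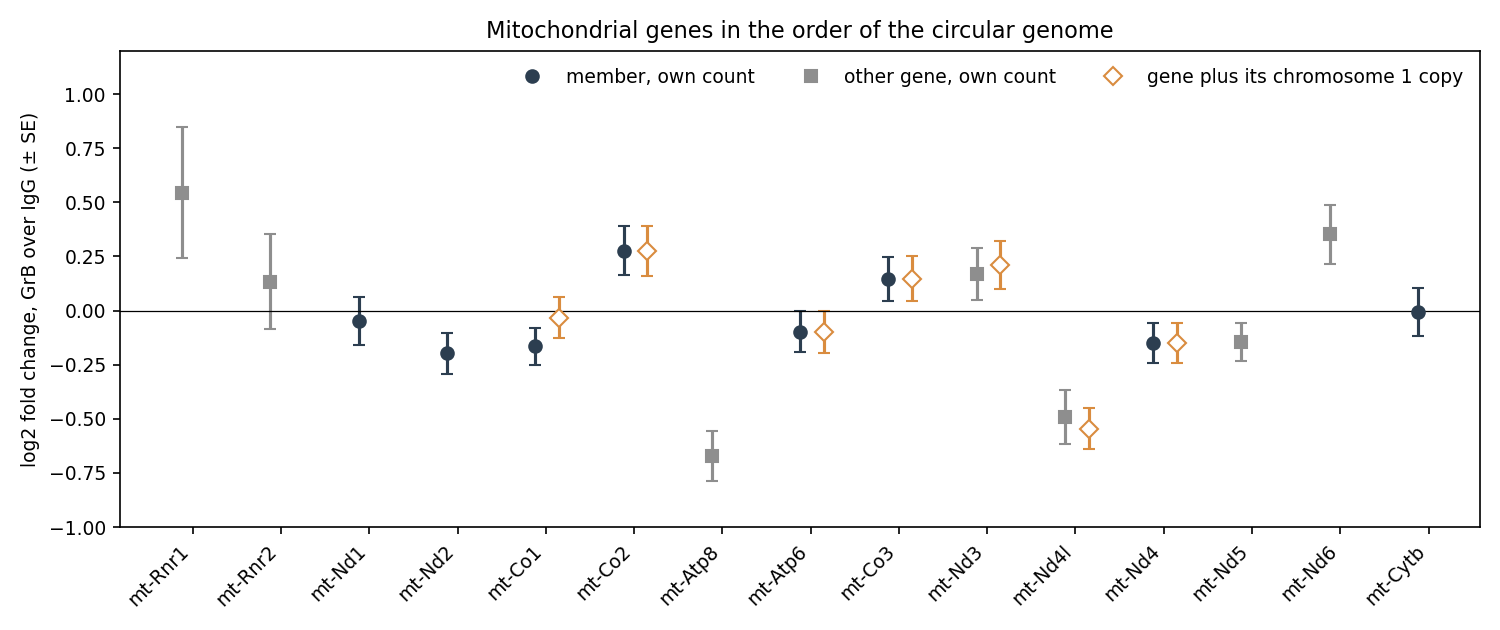
Log2 fold change of GrB against IgG (vertical axis, ± SE) for the ribosomal RNA and protein genes of the mitochondrial genome in genome order; circles and squares are own counts, open diamonds the gene plus its chromosome 1 copy. mt-Co1 moves from -0.16 to -0.03 when Gm29216 is added, and mt-Atp8 (-0.67) and mt-Nd4l (-0.49) lie lowest.

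The mitochondrial genome as a whole took the same share of counts in both groups within their spread. Its share was 2.01, 2.11, 2.26 and 2.11% in IgG and 2.26, 2.21, 2.23 and 1.77% in GrB. Means were 2.12 ± 0.103% and 2.12 ± 0.232% (SD, n = 4 each), and GrB 4 was the lowest library. With the 7 chromosome 1 copies added, the shares were 2.59 ± 0.115% and 2.70 ± 0.327%. The 7 copies alone held 0.470 ± 0.0179% of counts in IgG and 0.578 ± 0.10% in GrB.

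Levels per kilobase of gene length were taken with the copy's counts added to the gene. In IgG libraries they ran over an order of magnitude along the genome. They are counts from libraries enriched for mRNA, and whether they follow the amount of each RNA was not tested. mt-Co2 was highest at 5090 ± 258 CPM per kb, followed by mt-Co1 (4292 ± 289), mt-Atp6 (3942 ± 259) and mt-Co3 (3768 ± 246); the ranges of the latter 3 overlapped from neighbour to neighbour. mt-Nd1 (2031 ± 95.6) and mt-Cytb (1888 ± 86.2) came next and overlapped each other. From mt-Atp8 (1228 ± 106) through mt-Nd6, mt-Nd4 and mt-Rnr2 to mt-Nd2 (767.5 ± 44.1), each range overlapped the next. mt-Nd5 stood at 647.5 ± 56.2, and mt-Nd3 (525 ± 28.2), mt-Nd4l (465.5 ± 26.7) and mt-Rnr1 (331.5 ± 74.6) were lowest. The copies matter for this order: on its own counts mt-Co2 was at 2546 ± 129 CPM per kb, below mt-Co1 at 4288 ± 291. In GrB libraries the order held for mt-Co2 and mt-Co1 at the top, and mt-Atp8 moved from place 7 to place 10.

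Ratios between mitochondrial genes, taken within each library, do not depend on scaling between libraries. In all 7 ratios chosen, the groups did not overlap. These ratios were chosen with their values known and are given as a description. The share of other gene ratios without overlap was not computed, so nothing is read from this count. mt-Nd4l with Gm10222 over mt-Nd4 with Gm28439 was 0.0934 ± 0.00222 in IgG and 0.0715 ± 0.010 in GrB. mt-Atp8 over mt-Atp6 with Gm10925 was 0.0933 ± 0.00536 and 0.0631 ± 0.0100. In both of these gene pairs, the count of the shorter upstream gene was thus lower against its longer partner in every GrB library. The genes of each pair overlap, and the part of read counting along them in these ratios was not tested. mt-Co2 with Gm28661 over mt-Co1 with Gm29216 was 0.526 ± 0.0204 and 0.648 ± 0.0569, and the same ratio for mt-Co3 with Gm28437 was 0.446 ± 0.0127 and 0.503 ± 0.0163. mt-Nd1 over mt-Nd2 was 2.44 ± 0.0357 and 2.69 ± 0.128, mt-Nd6 over mt-Nd5 0.509 ± 0.0325 and 0.712 ± 0.108, and mt-Rnr1 over mt-Rnr2 0.231 ± 0.0129 and 0.296 ± 0.0530.

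**Figure D4:**
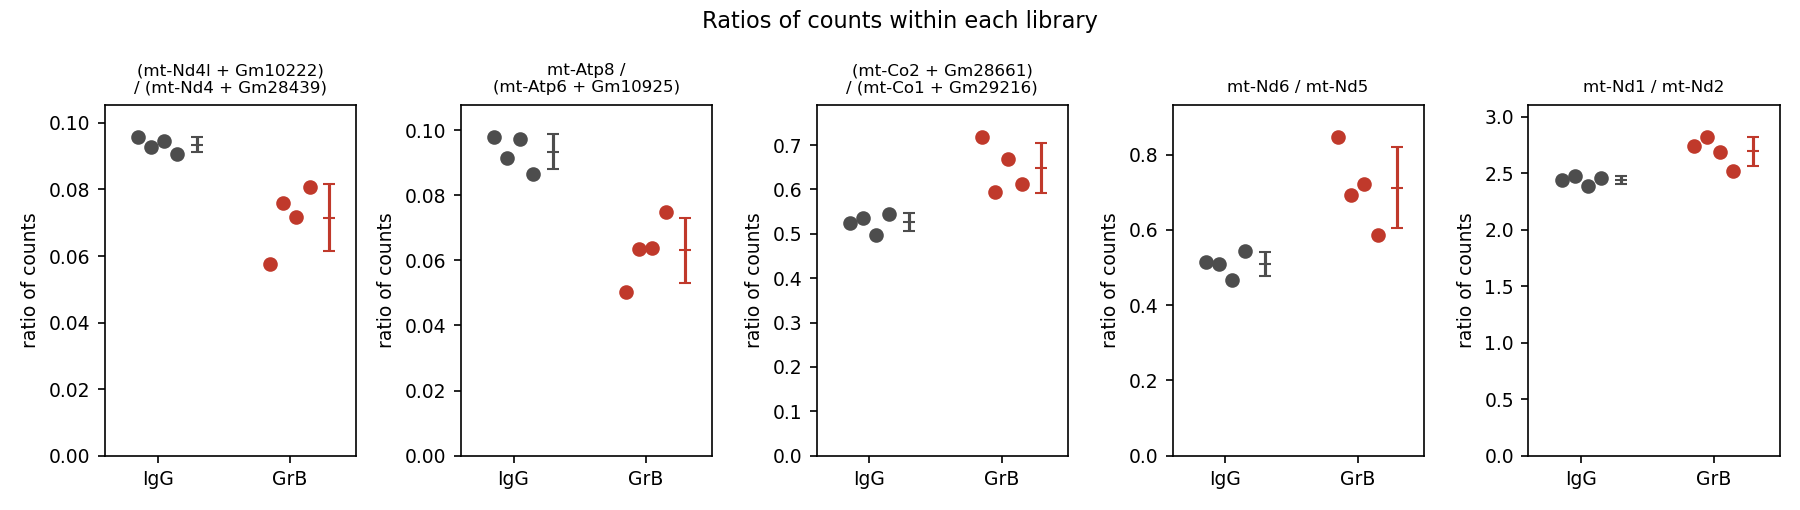
Ratio of counts within each library (vertical axes from 0) for 5 of the 7 pairs of mitochondrial genes; points are libraries and bars the mean ± SD of the IgG and GrB groups. For mt-Nd4l over mt-Nd4 the IgG mean of 0.0934 is above the GrB mean of 0.0715, and for mt-Co2 over mt-Co1 the GrB mean of 0.648 is above the IgG mean of 0.526.

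Transcript length was examined in each library beside these levels. Over 12716 nuclear protein-coding genes, each library's deviation from the mean of all libraries was ranked against transcript length. Spearman's rho was 0.405, 0.410, 0.373 and 0.448 in IgG 1 to 4 and -0.424, -0.343, -0.182 and -0.0630 in GrB 1 to 4, so longer transcripts stood relatively higher in every IgG library. Across GrB libraries the most negative value (GrB 1) came with the highest Gm29216 level and the value nearest to 0 (GrB 4) with the lowest, while GrB 2 and GrB 3 differed in rho but had like levels of 444 and 449 CPM. Within IgG the order ran the other way: IgG 4 had the highest rho and the highest Gm29216 level (10.7 CPM), and IgG 3 the lowest of both (1.36 CPM). The part of transcript length in the levels of Gm29216, Gm10222, mt-Atp8 and mt-Nd4l was not tested.

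Markers of other cell types also differed between libraries. The sum of 6 skeletal muscle markers, all higher on average in GrB, was 37.3 to 172 CPM in IgG and 2088, 270, 335 and 35.6 CPM in GrB 1 to 4. GrB 1 was the highest and GrB 4 the lowest of all 8 libraries. The sum of 5 T cell markers was 1.4 to 3.92 CPM in IgG and 36.6, 19.1, 2.87 and 9.92 CPM in GrB. That of 5 macrophage markers was 526 to 759 CPM in IgG and 1647, 1226, 765 and 754 CPM in GrB. Adipocyte markers summed to 46.3 to 76.1 CPM in IgG and 62.6 to 381 CPM in GrB, and epidermal markers to 6.50 to 16.2 CPM in IgG and 8.62 to 1891 CPM in GrB, the highest being GrB 2. Brown adipocyte markers, of which Ucp1 was not analysed here, stayed at or below 6.76 CPM, with Cidea at 0 in every IgG library and Ppargc1a at 0 in IgG 3. Erythroid and endothelial sums overlapped, at 202 to 573 and 112 to 220 CPM in IgG against 165 to 828 and 142 to 217 CPM in GrB. With GrB 1 and 2 left out, a choice made after seeing the data, Gm29216 kept a log2 fold change of 5.69 and Gm10222 of -0.54. The part of skeletal muscle or of any other of these cell types in the levels of Gm29216 and Gm10222 was not tested.

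The nuclear partners of the mitochondrial subunits were, as a list, higher in GrB. Of 77 nuclear genes of oxidative phosphorylation, 73 had higher and 4 lower mean levels; 62 were higher and 2 lower at an unadjusted p under 0.05 by edgeR. That is 83.1% of the list beside 35.1% of all genes, and 17.3% of all genes were higher and 17.8% lower at that p. None passed after adjustment (smallest adjusted p 0.0619), and the median log2 fold change was 0.37, beside 0.03 over all genes. Of the 13 mitochondrial protein genes, 4 were higher and 9 lower, with a median of -0.10.

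In complex I, NADH dehydrogenase, 36 of 37 nuclear genes were higher and the median was 0.40. Ndufa7, an accessory subunit, was at 43.6 ± 1.70 CPM in IgG and 57.7 ± 5.55 CPM in GrB (log2 fold change 0.40, edgeR adjusted p = 0.0619), and Ndufs5, another, at 24.2 ± 0.617 and 35.4 ± 6.54 CPM (0.55, adjusted p = 0.0619). Ndufs1, which carries iron-sulfur clusters, was the exception at 68.9 ± 1.87 and 61.6 ± 2.72 CPM (-0.16, adjusted p = 0.101). In complex IV all 11 nuclear genes were higher (median 0.41), with Cox6a1 at 83.0 ± 2.26 and 118 ± 22.2 CPM (0.51, adjusted p = 0.0619) and Cox7c at 39.8 ± 2.02 and 55.2 ± 8.21 CPM (0.47, adjusted p = 0.0619).

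In complex III, 8 of 9 nuclear genes were higher (median 0.21). Uqcrh, the hinge protein, was at 110 ± 7.10 and 176 ± 40.4 CPM (0.68, adjusted p = 0.0619), and Uqcrc2, a large core protein, at 101 ± 5.39 and 97.5 ± 3.83 CPM (-0.06, adjusted p = 0.544). In complex V, 15 of 16 were higher (median 0.31). Atp5e, a small subunit of the rotor stalk, was at 71.0 ± 2.60 and 122 ± 36.2 CPM (0.78, adjusted p = 0.0619), while Atp5b, the catalytic beta subunit, was at 1239 ± 75.3 and 1061 ± 108 CPM (-0.22, adjusted p = 0.123). In complex II, which has no mitochondrially encoded subunit, 3 of 4 were higher (median 0.19), with Sdhc, a membrane anchor, at 80.0 ± 2.33 and 93.4 ± 8.51 CPM (0.22, adjusted p = 0.0837). Sdha was lower, at 205 ± 5.34 and 184 ± 16.0 CPM (-0.15, edgeR adjusted p = 0.171). With GrB 1 and 2 left out, 53 of the 77 genes had an unadjusted p under 0.05, beside 23.9% of all genes. The length trend given above ran through the nuclear genes as well, and its part in this list was not tested.

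**Figure D5:**
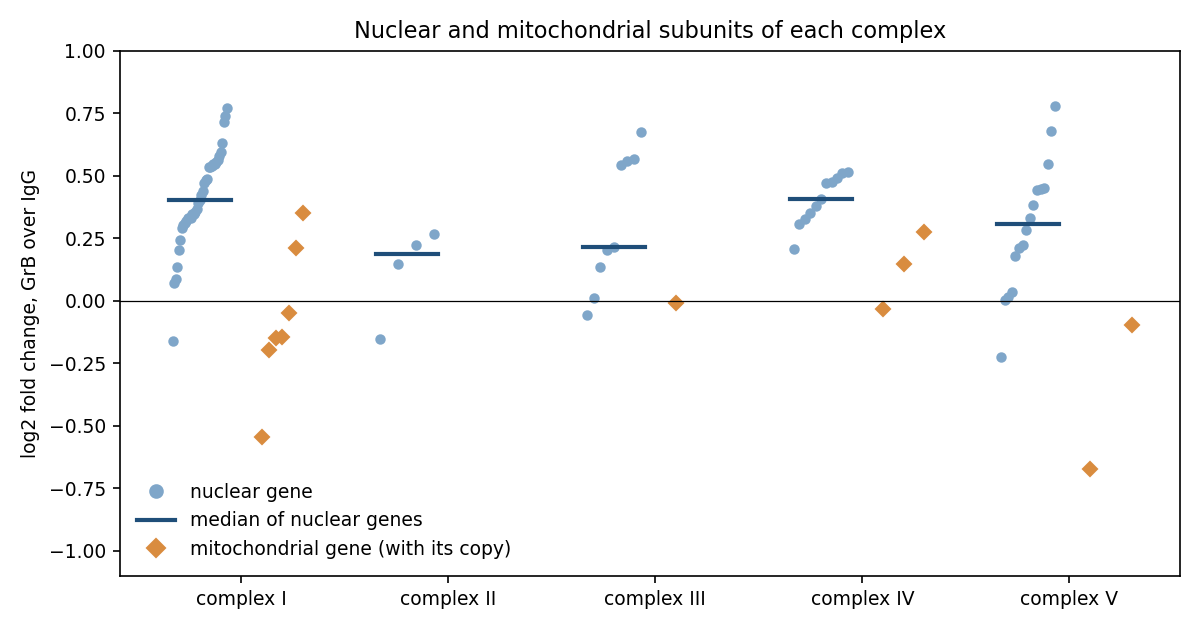
Log2 fold change of GrB against IgG (vertical axis) for the subunits of each respiratory complex; circles are nuclear genes with their median as a bar, and diamonds are mitochondrial genes with the counts of their chromosome 1 copy added. Nuclear medians are 0.19 to 0.41, and the mitochondrial genes range from -0.67 (mt-Atp8) to 0.35 (mt-Nd6).

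Genes that maintain the mitochondrial genome and handle its RNA had differences of both signs. Of 20 genes of mitochondrial RNA processing, 15 were lower, 12 of them at an unadjusted p under 0.05, beside 17.8% of all genes (median -0.25). Lrpprc, which stabilises mitochondrial mRNAs, was at 78.1 ± 4.78 and 63.0 ± 5.04 CPM (-0.31, edgeR adjusted p = 0.0619), and Fastkd1, of a family that acts on mitochondrial RNA, at 10.7 ± 1.30 and 7.17 ± 1.1 CPM (-0.58, adjusted p = 0.0619). Of 20 genes of mitochondrial DNA replication and transcription, 13 were higher and 7 lower (median 0.03). In that list Lig3, the mitochondrial DNA ligase, was at 60.8 ± 3.17 and 41.0 ± 8.23 CPM (-0.57, adjusted p = 0.0619), and Rrm2b, a ribonucleotide reductase subunit, at 13.2 ± 1.08 and 8.47 ± 1.47 CPM (-0.64, adjusted p = 0.0619). Of 78 mitochondrial ribosome genes, 70 were higher, 40 of them at an unadjusted p under 0.05, beside 17.3% of all genes; over all genes, 53.2% had a log2 fold change above 0 (median of the list 0.23).

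Assembly factors of the complexes split 27 higher to 15 lower among 42 (median 0.06). General mitochondrial proteins used as markers of organelle mass split 10 to 7 among 17 (median 0.04). Of 9 tested biogenesis regulators 6 were lower (median -0.32), among them Pprc1, a coactivator related to PGC-1, at 114 ± 9.51 and 87.4 ± 12 CPM (-0.38, adjusted p = 0.0636). Genes of mitochondrial stress split 7 to 4 among 11 (median 0.01), translation factors 6 to 7 among 13 (median -0.04) and genes of mitophagy and dynamics 6 to 8 among 14 (median -0.03).

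Within groups, most but not all mitochondrial genes varied with the mitochondrial genome sum across libraries. Pearson's r of log2(CPM + 0.25), centred within each group over 8 libraries, is given without a p; the points share each library's depth, and the sum contains the gene itself. Against the mitochondrial genome sum, r was 0.965 for mt-Co3, 0.959 for mt-Nd1, 0.934 for mt-Nd2, 0.882 for mt-Co2 and 0.742 to 0.827 for the other 4. It was 0.668 for mt-Rnr2, 0.728 for mt-Rnr1, 0.767 for mt-Nd5, 0.865 for mt-Nd6 and 0.921 for mt-Nd3, but -0.05 for mt-Atp8 and -0.08 for mt-Nd4l. It was 0.200 for Gm29216 and 0.155 for Gm10222. Gm10222 stood closer to mt-Atp8 (r = 0.853) and to its parent mt-Nd4l (r = 0.814), and Gm29216 had r = -0.72 with Gm10222. Among 14852 genes compared, those most like the mitochondrial sum were Mcat (0.975), Gm49027 (0.973) and Tnfsfm13 (0.966). Those most like Gm29216 were Gm4285 (0.973), Myh2 (0.966), a myosin heavy chain of skeletal muscle, and A930005H10Rik (0.959). Myh2 was at 0.225 to 8.47 CPM in IgG and at 30.7, 3.97, 7.86 and 0.941 CPM in GrB 1 to 4. Those most like Gm10222 were Rgp1 (0.976), Rgs19 (0.974) and Zbtb1 (0.966). All of these are the highest values among 14852 genes over only 8 libraries, so a high r follows in part from that choice. A link of Gm29216 to Myh2 or to muscle was not tested.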

How the data were processed

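RNA sequencing libraries of 8 tumours (4 IgG, 4 GrB) were analysed. The submitters' processing notes name bcl2fastq 2.19.1.403, STAR and the build GRCm39. The gene counter, its use of strand and its division of reads between copies were not stated there or in the labels. The authors deposited estimated counts per gene and, per the file headers and values, CPM made after adding 0.0001 to each count; the latter served 2 alternatives. Estimated counts were rounded and tested with edgeR 4.0.16 (R 4.3.3; TMM scaling, filterByExpr, robust quasi-likelihood test, Benjamini-Hochberg threshold 0.05), which kept 19718 of 26709 genes; its biological coefficient of variation was 27.8%. The tests were tried on simulated counts. Shares are of unscaled counts, and intervals between libraries are SD (n = 4).

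The 7 chromosome 1 copies were paired with mitochondrial genes by placing their GENCODE M21 transcripts (GRCm38) without gaps and counting differences. Other copies were sought with exact 31-base words of M21 transcripts, which 25863 of 26709 rows had. Coordinates are those of the table, with its stop taken as 1 base past the end. Alternatives were other scalings, filters, DESeq2 1.42.0, limma 3.58.1, each library left out, libraries with the U suffix left out or modelled, and copies summed with their gene. The genes named besides the 10 are from the other mitochondrial genes and from rows within 20 kb of a pseudogene. Others are the 3 closest by correlation (at least 1 CPM) or were among the 2 with the smallest p of each list. Not every gene of these classes is named. The lower members of the respiratory list and the other copies were chosen after their values were seen. The 10 genes, the lists and the tests were chosen with earlier results of these data known.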

Additional observations from a re-analysis of the deposited data

Results flagged for a closer look

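Of 76 groups of 4 libraries checked, 3 held a library far from the other 3 by Dixon's criterion (critical value 0.829), and chance gives such a library in about 1 of 20 groups. The mitochondrial genome took 1.77% of counts in GrB 4, while the other GrB libraries took 2.21 to 2.26%. The share of Gm28437 in its pair with mt-Co3 was 49.998436% in GrB 1, beside 50.000 to 50.0002% in the other GrB libraries. The share of Gm28661 in its pair with mt-Co2 was 49.967884% in IgG 4, beside 49.9719 to 49.9725% in the other IgG libraries; both share differences are under 0.1 points.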

How the results depend on the processing

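Across all genes, 0 were called by edgeR, while DESeq2 called 4708 (2251 higher, 2457 lower) and limma-voom 1; leaving out 1 library gave 0 to 3447 calls, with 1260 without GrB 1 and 3447 without GrB 4. Of the other mitochondrial genes, 4 had an unadjusted p under 0.05, with a range of 2 to 5 when 1 library was left out and 2 when GrB 1 and 2 were left out, an alternative chosen after seeing the data. Among the 4 is mt-Nd4l, whose reads are divided with Gm10222. The nuclear respiratory list gave 53 to 66 such genes of 77 under 20 alternatives. The group difference in the mitochondrial share ran from -0.050 to 0.113 points under 12 alternatives. Log2 fold changes of Gm29216 ran from 5.69 to 6.92 and of Gm10222 from -0.66 to -0.54 (20 alternatives each), and mt-Co1 was at -0.03 when summed with Gm29216. The sign changed for mt-Cytb (-0.10 to 0.08) and mt-Nd1 (-0.15 to 0.05) only. The cause of these changes was not tested. No paired analysis was possible because replicate numbers were given in accession order and the labels name no shared animal or batch. Intervals cover these libraries only, and no genome of the table's build was used, so reads could not be reassigned between copies.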

Other observations

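Within the lists of mitochondrial function, genes of the assembly factors with the smallest p were Uqcc2, an assembly factor of complex III, at 28.3 ± 0.291 CPM in IgG and 41.6 ± 6.71 CPM in GrB libraries (log2 fold change 0.56, edgeR adjusted p = 0.0619), and Cox14, of complex IV, at 21 ± 0.703 and 31 ± 5.49 CPM (0.56, adjusted p = 0.0619). Of the genes that shape mitochondria, Fis1, an outer membrane adaptor of fission, was at 62.8 ± 2.50 and 95.4 ± 19.9 CPM (0.60, adjusted p = 0.0619), while Dnm1l, the fission GTPase, was at 98.1 ± 3.05 and 77.5 ± 6.68 CPM (-0.34, adjusted p = 0.0619). Mrpl14 and Mrpl52, proteins of the mitochondrial ribosome, were at 35.1 ± 1.88 against 52.3 ± 10.3 CPM (0.57) and 38.0 ± 1.52 against 52.5 ± 7.19 CPM (0.47), each with an adjusted p of 0.0619. Hspe1, the small partner of the chaperonin of the matrix, was at 35.6 ± 1.2 and 47.2 ± 8.76 CPM (0.41, adjusted p = 0.0667).

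The proliferation marker Mki67 was at 348 ± 12.8 CPM in IgG and 255 ± 39.3 CPM in GrB libraries (-0.45, adjusted p = 0.0619).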
